A study of Xenopus laevis with 5 samples.

Results

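Messenger RNA decay in most eukaryotic cells begins when deadenylases shorten the poly(A) tail. The shortened RNA is then either decapped and digested from its 5′ end by an XRN exonuclease, or digested from its 3′ end by the RNA exosome with the help of the SKI complex. In the frog embryo these enzymes act on maternal RNAs that were laid down in the egg and are cleared as the embryo's own genes switch on. The genes described here encode that machinery: the CCR4-NOT and PAN2-PAN3 deadenylases and PARN, the TOB, PUM2 and ZFP36 proteins that direct them, the decapping enzyme and its activators, the LSM proteins, the XRN exonucleases, the exosome and its helicase partners.

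Members were chosen by gene symbol in the authors' deposited annotation table, with no measured value used in the rule. It gave 82 of 45099 gene models, for 48 gene symbols. Xenopus laevis is allotetraploid and carries L and S copies of many genes, and 34 symbols had both copies, 10 only an L copy and 4 only an S copy. The deposited annotation matched 79 of the 82 models to a human symbol by both of its sources. Enough reads for a test were found for 79 members.

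The libraries came from Xenopus laevis whole embryos labelled stage 10.5, the early gastrula. Eggs from 2 mating pairs were injected with 18 ng of a control morpholino (3 libraries, replicates 1, 2 and 3) or 18 ng of a translation blocking MOV10 morpholino (2 libraries, replicates 2 and 3). A morpholino is a stable antisense oligonucleotide, and MOV10 is an RNA helicase linked to the RNA-induced silencing complex. The labels describe biological replicates, with separate embryos collected for each condition. They tie no embryo to a mating pair and name no strain. A MOV10 replicate 1 was not analysed here.

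Gene counts per library ran from 11347400 to 13515787, and 3 counts corresponded to 0.222 to 0.264 CPM (each gene's counts scaled to the library's gene counts). Each level below is a CPM after TMM scaling, given in the order control replicates 1, 2 and 3, then MOV10 replicates 2 and 3. CPM is not corrected for transcript length, so levels are compared between libraries and not between genes. The kit selects polyadenylated RNA, so fewer transcripts and shorter tails on them cannot be told apart, nor, in whole embryos, fewer cells of a type and less RNA per cell. RNA of the target, mov10.L, was at 7.03, 2.69 and 5.86 CPM in the controls and 32.8 and 26.0 CPM in the MOV10 libraries, which checks neither the label nor the knockdown, because the morpholino acts on translation. Of 18 models of gastrula marker genes, all 18 had more than 10 counts in every control and 16 in every library. Markers of differentiated muscle were higher in the MOV10 libraries for 22 of 22 tested models (25 in all): their summed level was 103, 448 and 214 CPM in the controls and 15568 and 17949 CPM in the MOV10 libraries, with 3 models at 0 in every control. Of 11 ciliated cell models 7 were higher and 1 lower (sum 173 to 284 against 433 to 500 CPM, none at 0 in every control). Of 8 tested neural models 1 was higher and 2 lower (sum 36.7 to 42.7 against 48.9 to 64.4 CPM). Of 6 tested blood and immune models 2 were higher and none lower (sum 12.3 to 15.3 against 48.3 to 65.7 CPM, 6 of 16 models at 0 in every control). The Toll-like receptor gene tlr7.L, named after its values were seen, made up most of that sum in the MOV10 libraries, at 23.5 and 57.8 CPM with no control count, and without it the sums were 24.7 and 7.84 CPM. More gene models had a read in the MOV10 libraries (26811 and 26093) than in the controls (23190 to 24144), and the strand not used here held 11.7 and 10.7% of the gene reads of both strands, against 6.15 to 7.89%. These marker sums and library measures differed between the groups beside every result below, and their part in the results was not tested. A difference in true stage between the groups cannot be told apart from the morpholino.

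The RNA decay genes were lower with the MOV10 morpholino more often than higher. Of 79 tested members 22 fell (27.8%), 7 rose (8.86%) and 50 did not pass the test, at a threshold of 0.05 on the edgeR adjusted p, a quasi-likelihood p corrected over 20049 genes by the Benjamini-Hochberg method. Among all 20049 genes 17.7% fell and 24.4% rose, 42.1% in either direction, so 36.7% of members called is not a high share, but the lower calls outnumbered the higher ones, where over all genes 4899 rose and 3544 fell. That excess of higher genes depended on the scale: with total gene counts as the scale 4358 rose and 4357 fell, and with the upper quartile 4525 rose and 4188 fell, while the members had 6 higher and 27 lower, and 6 higher and 24 lower. The median log2 fold change was -0.30 over the tested members and 0.08 over all genes. Both MOV10 libraries lay below every control in 36 members (45.6%, against 30.4% of all genes) and above every control in 18 (22.8%, against 35.5%), and the groups overlapped in 25. A fitted change of at least 2-fold was found for 24 of the 29 called members, a share that was not counted over all called genes. The rule's pattern for LSM genes also takes in LSM proteins outside the decay ring, and without them 6 of 72 members rose and 19 fell.

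Without MOV10 replicate 2, which left 1 MOV10 library, fewer members passed in either direction, as did fewer of all genes. The median log2 fold change was then -0.30 over the members and 0.01 over all genes. Calls of 16 members held in all 14 alternative settings (13 with edgeR and 1 with DESeq2). Of these, skiv2l.L, skiv2l2.L, ttc37.L, tob1.L, edc4.L and exosc7.L rose. The others, cnot11.L, both copies of lsm3, parn and lsm14a, xrn2.S, exosc5.L and lsm10.L, fell. How often calls held in every setting was not counted over all genes, so whether 16 is a high number is not known. The 50 members that did not pass were not all measured well enough to show a small difference. For 15 of them the 95% interval of the fold change lay within 2-fold in either direction, and for 35 it did not.

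**Figure D1:**
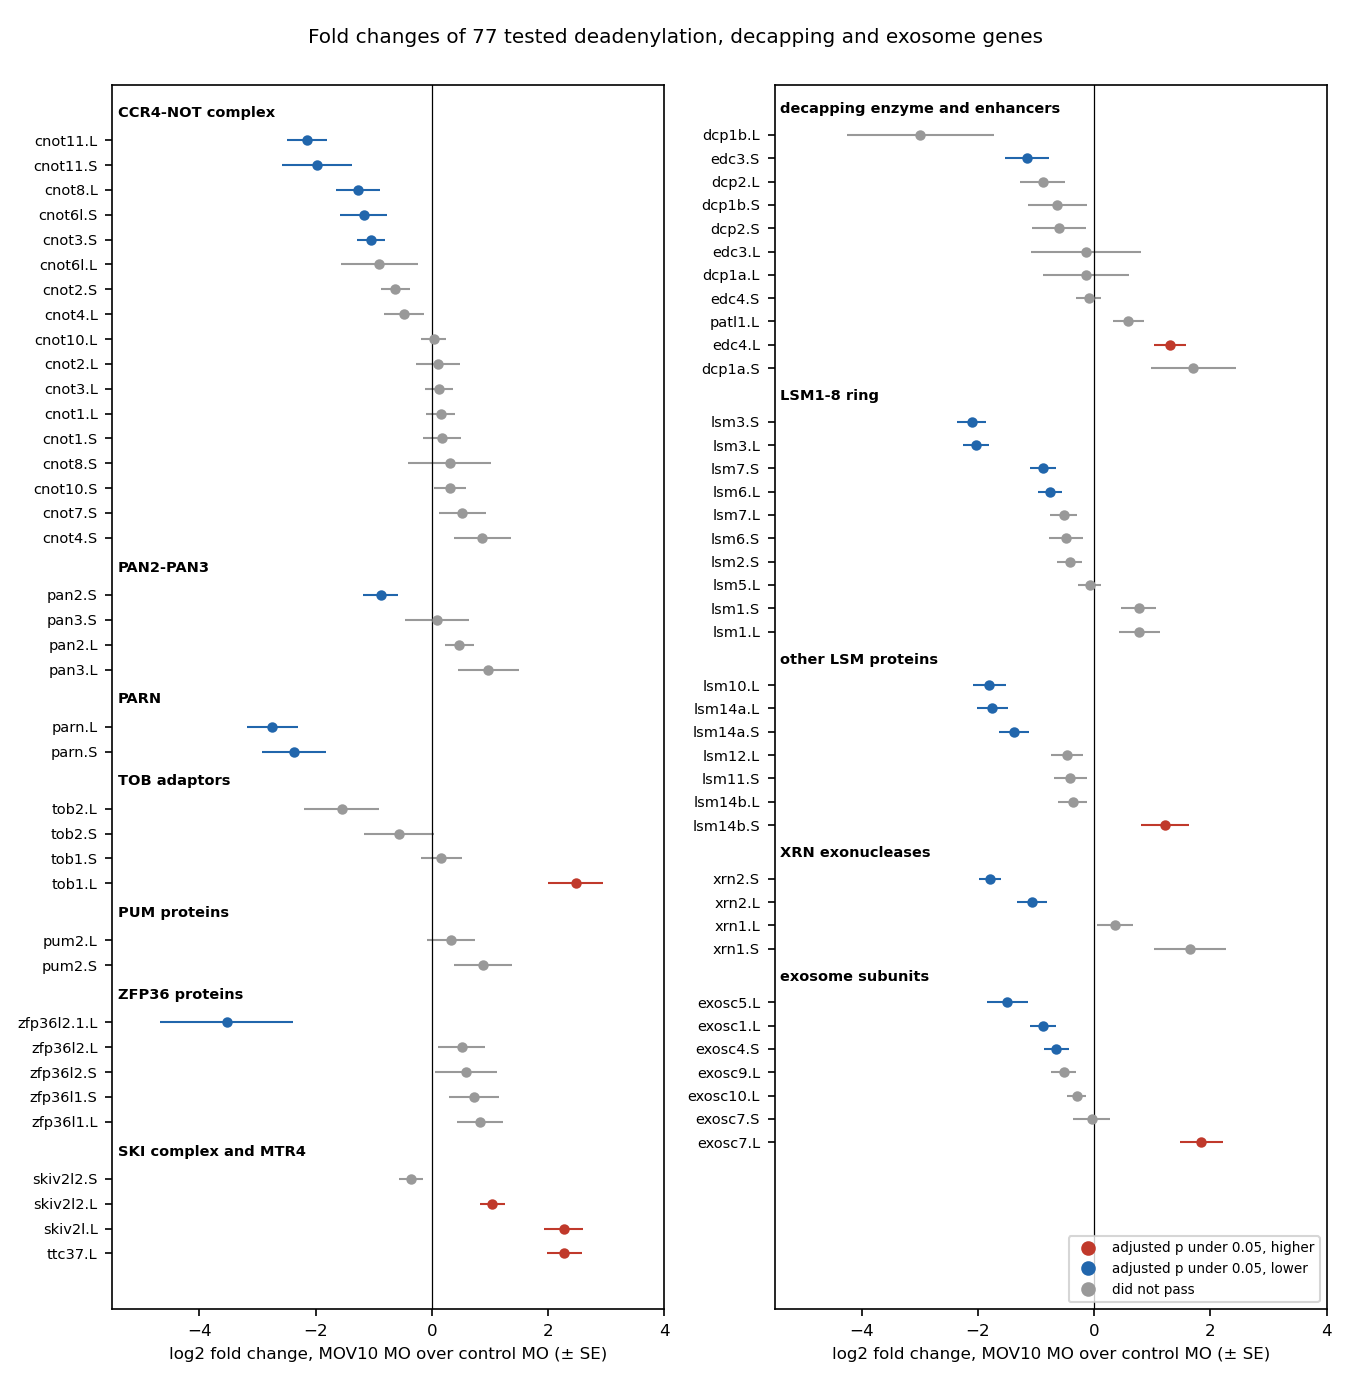
Fitted log2 fold change of 77 of the 79 tested members, MOV10 morpholino over control, grouped by role, with bars of 1 standard error. Red points rose and blue points fell at an edgeR adjusted p under 0.05, and grey points did not pass; blue points outnumber red ones, 22 to 7, and 3 of the 7 red points stand among the SKI and MTR4 genes.

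The deadenylases came first in the pathway. CCR4-NOT, the main cytoplasmic deadenylase, had 5 of 17 tested members lower, none higher and 12 not passing, with a median log2 fold change of 0.03. That is 29.4% called, against 42.1% of all genes, of which 17.7% fell and 24.4% rose. The clearest change was in cnot11, which encodes the subunit that joins CNOT10 at the amino-terminal end of the CNOT1 scaffold. The level of cnot11.L was 14.7, 19.97 and 14.95 CPM in the controls and 3.86 and 3.59 CPM in the MOV10 libraries. Its log2 fold change was -2.15 ± 0.34 (SE; edgeR adjusted p = 0.00168), a 4.43-fold fall with no overlap between the groups. For cnot11.S the levels were 6.96, 7.498 and 4.54 CPM against 0.753 and 2.46 CPM, again without overlap, at -1.98 ± 0.60 (SE; edgeR adjusted p = 0.0278). That call was lost without control replicate 1 (edgeR adjusted p = 0.0669), control replicate 2 (0.0732) or MOV10 replicate 2 (0.101, log2 fold change -1.37), and the value was -3.07 without MOV10 replicate 3.

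Among the catalytic subunits, cnot8.L fell from 14.5, 11.8 and 9.17 CPM to 4.23 and 5.58 CPM, at -1.27 ± 0.37 (SE; edgeR adjusted p = 0.0239). Another, cnot6l.S, fell from 10.1, 7.74 and 6.11 CPM to 3.76 and 3.31 CPM, at -1.18 ± 0.41 (SE; edgeR adjusted p = 0.0478). Neither gene's groups overlapped, but neither call held in every setting. The call of cnot8.L ended without control replicate 1 (edgeR adjusted p = 0.0785), control replicate 2 (0.0551) or MOV10 replicate 2 (0.107). That of cnot6l.S was lost without any 1 of the 5 libraries, at 0.148, 0.0899 and 0.0507 without control replicates 1, 2 and 3 and at 0.0977 and 0.142 without MOV10 replicates 2 and 3, and in 12 of 14 alternatives in all. A subunit of the NOT module, cnot3.S, fell from 84.5, 60.2 and 75.7 CPM to 32.6 and 38.5 CPM, at -1.05 ± 0.24 (SE; edgeR adjusted p = 0.00856), and missed the threshold without MOV10 replicate 2 (0.0542; 0.000860 to 0.0542 over the 14 alternatives).

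The other members of this complex, the scaffold gene among them, did not pass. CNOT9 carries another name in the annotation and is given further below. The CNOT1 scaffold gene cnot1.L had 0.15 ± 0.25 on the log2 scale (SE; edgeR adjusted p = 0.663), with a 95% interval of -0.42 to 0.72. CNOT11's partner gene cnot10.L, the member of this complex with the highest mean CPM among those that did not pass, stood at 79.1, 84.4 and 88.1 CPM in the controls and at 99.4 and 71.9 CPM in the MOV10 libraries. The MOV10 libraries lay on either side of the controls, and the 95% interval of the log2 fold change was -0.46 to 0.52. The deadenylase gene cnot7.S had 0.52 ± 0.40 (SE; edgeR adjusted p = 0.332). For cnot4.S, a ubiquitin ligase gene, the value was 0.87 ± 0.49 (SE; edgeR adjusted p = 0.187), with 10.5 CPM in control replicate 1 against 3.59 and 4.38 CPM in the other controls. Without control replicate 1 it passed the test (log2 fold change 1.51, edgeR adjusted p = 0.0273).

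PARN, a poly(A)-specific ribonuclease long studied in maturing Xenopus oocytes, showed the largest fall among members with a call in every setting, and in both copies. The level of parn.L (chromosome 9_10L, 89477429 to 89552801 on Xenla9.1) was 8.03, 9.86 and 7.85 CPM in the controls and 1.22 and 1.32 CPM in the MOV10 libraries. That of parn.S (9_10S, 80181870 to 80257693) was 6.76, 3.67 and 5.12 CPM against 1.03 and 0.945 CPM. No MOV10 library came near a control in either copy. The fall was 6.69-fold for parn.L (log2 fold change -2.74 ± 0.44, SE; edgeR adjusted p = 0.00173) and 5.20-fold for parn.S (-2.38 ± 0.55, SE; edgeR adjusted p = 0.00886).

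PAN2-PAN3 starts tail shortening, PAN2 being the nuclease and PAN3 the subunit that binds poly(A)-binding protein. Of its 4 tested members 1 fell (17.7% of all genes fell). The level of pan2.S was 18.4, 25.7 and 28.2 CPM in the controls and 14.2 and 11.9 CPM in the MOV10 libraries, at -0.88 ± 0.30 on the log2 scale (SE; edgeR adjusted p = 0.0406). The groups did not overlap, but the call was lost without control replicate 2 (edgeR adjusted p = 0.0944), control replicate 3 (0.112), MOV10 replicate 2 (0.0806) or MOV10 replicate 3 (0.164). The other copy, pan2.L, stood at 49.1, 74.7 and 51.3 CPM against 91.6 and 70.5 CPM, with overlap (0.47 ± 0.26, SE; edgeR adjusted p = 0.168). Neither pan3 copy passed, at 0.97 ± 0.52 for pan3.L and 0.09 ± 0.55 for pan3.S on the log2 scale (SE).

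Among the adaptors that bring deadenylases to RNA, tob1.L rose. TOB proteins bind both poly(A)-binding protein and a CCR4-NOT nuclease. Its level was 1.41, 1.96 and 2.73 CPM in the controls and 7.71 and 14.8 CPM in the MOV10 libraries, a 5.56-fold rise (log2 fold change 2.47 ± 0.47, SE; edgeR adjusted p = 0.00385). The lower MOV10 library was still above the highest control. The S copy did not pass, at 8.17, 7.17 and 5.86 CPM against 7.06 and 8.79 CPM (0.16 ± 0.36, SE; edgeR adjusted p = 0.742). Neither did tob2.L (-1.55 ± 0.64, SE; edgeR adjusted p = 0.0819) or tob2.S (-0.57 ± 0.60, SE; edgeR adjusted p = 0.482).

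Neither copy of pum2 passed. Its protein binds a short motif in 3′ untranslated regions and recruits CCR4-NOT. The level of pum2.L was 4.89, 3.75 and 3.55 CPM in the controls and 5.27 and 5.01 CPM in the MOV10 libraries (log2 fold change 0.34 ± 0.41, SE; edgeR adjusted p = 0.546). That of pum2.S was 3.75, 1.79 and 3.30 CPM against 6.77 and 4.16 CPM (0.88 ± 0.50, SE; edgeR adjusted p = 0.188). Both MOV10 libraries lay above all controls in each copy, but the 95% intervals of the log2 fold changes, -0.61 to 1.28 and -0.26 to 2.03, take in 0.

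The ZFP36 proteins bind AU-rich elements and recruit deadenylases. Of 7 models 5 were tested, and 1 of them fell (17.7% of all genes fell). That model, zfp36l2.1.L, had 67 counts in the controls together and 3 in the MOV10 libraries, 0 in replicate 2 and 3 in replicate 3. Scaled to library size, the ratio of control to MOV10 counts was 12.1 (95% interval 3.96 to 60.0, counting error only), with an edgeR adjusted p = 0.0360. The call was lost without control replicate 2 (edgeR adjusted p = 0.0517), control replicate 3 (0.0739) or MOV10 replicate 2 (0.134, log2 fold change -2.58); without MOV10 replicate 3 the other MOV10 library had no count. The 4 models of zfp36l1 and zfp36l2 did not pass, with log2 fold changes of 0.51 to 0.83. The highest of them by mean CPM, zfp36l1.S, was at 16.6, 9.13 and 8.59 CPM against 11.9 and 26.2 CPM, with overlap. The L copy of zfp36l1 passed without control replicate 1 (edgeR adjusted p = 0.0421). Counts of zfp36 itself were too low to test: 0, 0 and 6 in the controls and 10 and 9 in the MOV10 libraries for zfp36.L, and 15, 5 and 1 against 2 and 3 for zfp36.S.

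Decapping genes mostly did not pass, with 1 of 11 tested members higher, 1 lower and 9 not passing. The called share was 18.2%, against 42.1% of all genes. EDC4 is the scaffold that holds the decapping enzyme and its activator together. The level of edc4.L was 17.5, 29.9 and 20.1 CPM in the controls and 52.8 and 58.1 CPM in the MOV10 libraries, a 2.46-fold rise without overlap (log2 fold change 1.30 ± 0.28, SE; edgeR adjusted p = 0.00629). The S copy stood at 55.8, 59.0 and 47.1 CPM against 53.0 and 48.1 CPM, with overlap (-0.10 ± 0.22, SE; edgeR adjusted p = 0.753). The enhancer gene edc3.S fell from 21.2, 14.8 and 19.1 CPM to 11.01 and 5.39 CPM (-1.16 ± 0.38, SE; edgeR adjusted p = 0.0367). Its groups did not overlap, but its call was lost without control replicate 1 (edgeR adjusted p = 0.0937), control replicate 3 (0.0885) or MOV10 replicate 3 (0.181), and the log2 fold change was -1.78 without MOV10 replicate 2.

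The decapping enzyme gene dcp2 had log2 fold changes of -0.89 ± 0.39 in its L copy and -0.61 ± 0.47 in its S copy (SE; edgeR adjusted p = 0.101 and 0.331). With all libraries no gene of its activator DCP1 passed: dcp1a.S had 1.71 ± 0.73 (SE; edgeR adjusted p = 0.0926), dcp1a.L -0.14 ± 0.74 and dcp1b.S -0.64 ± 0.51. The MOV10 libraries lay on either side of the controls in dcp1a.L, at 4.05 and 0.661 CPM against 2.28, 3.18 and 2.31 CPM. In dcp1b.L there were 33 control counts and 2 MOV10 counts, a ratio of 8.92 (95% interval 2.28 to 76.7, counting error only; edgeR adjusted p = 0.0880). Only without control replicate 2 did dcp1a.S pass (log2 fold change 2.72, edgeR adjusted p = 0.0175). Decapping activator gene patl1.L was at 13.3, 13.6 and 11.8 CPM against 20.1 and 18.7 CPM, with no overlap and an edgeR adjusted p = 0.103. The L copy of edc3 had 0.937, 2.69 and 1.07 CPM against 2.54 and 0.283 CPM, the MOV10 libraries lying on either side of all controls.

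**Figure D2:**
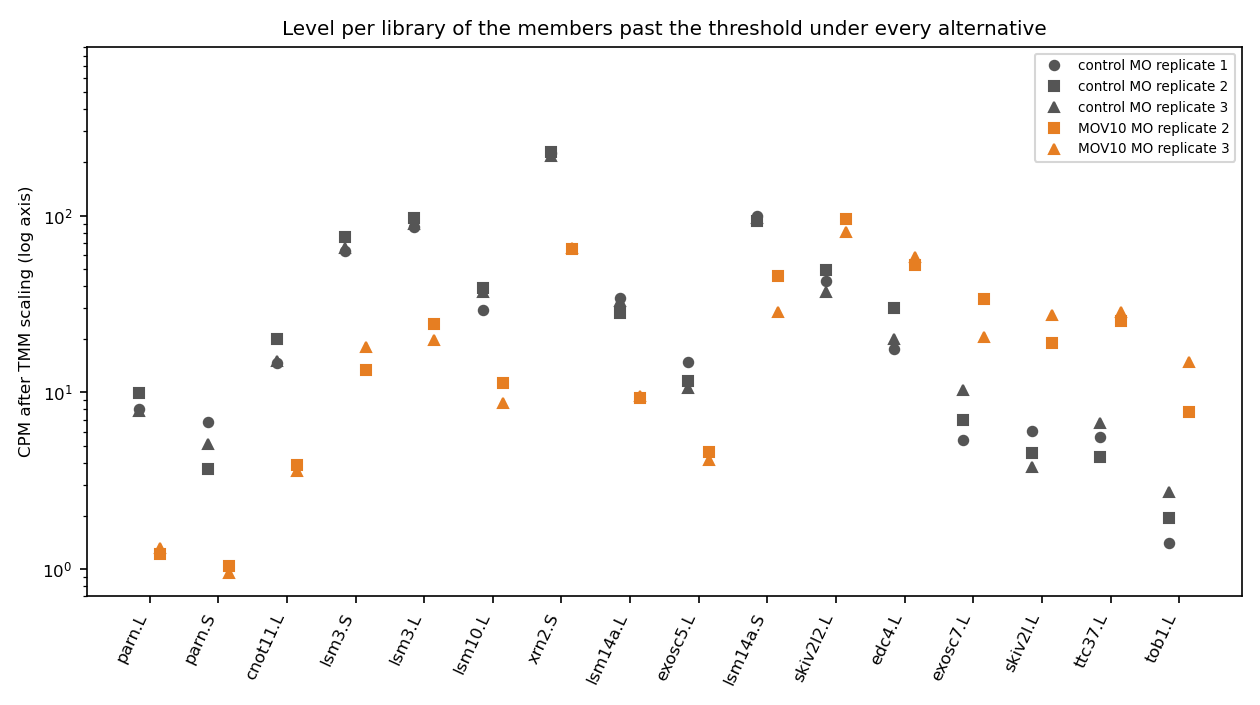
CPM after TMM scaling (log axis) in each of the 5 libraries for the 16 members whose call held in all 14 alternative settings, controls in grey and MOV10 libraries in orange. In each of the 10 members that fell both orange points lie below every grey point, and in each of the 6 that rose both lie above.

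LSM1 with LSM2 to LSM7 binds the 3′ end of deadenylated RNA and promotes decapping, and LSM8 in place of LSM1 makes the nuclear ring that binds U6 RNA. Of 10 tested ring members 4 fell, none rose and 6 did not pass (17.7% of all genes fell). Both MOV10 libraries lay below every control in 8 of them, against 30.4% of all genes, and above every control in 2. The gene lsm3 fell in both copies by nearly the same factor. The level of lsm3.L (4L, 127269267 to 127279441) was 86.7, 97.1 and 89.1 CPM in the controls and 24.5 and 19.8 CPM in the MOV10 libraries, a 4.10-fold fall (-2.04 ± 0.23, SE; edgeR adjusted p = 0.000337). That of lsm3.S (4S, 105596098 to 105602448) was 63.1, 75.2 and 65.6 CPM against 13.4 and 18.1 CPM, a 4.31-fold fall (-2.11 ± 0.25, SE; edgeR adjusted p = 0.000481). In both copies the gap between the groups was far wider than the spread within them.

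Smaller falls were found for lsm7.S and lsm6.L. The level of lsm7.S went from 62.9, 70.1 and 78.9 CPM to 40.8 and 35.9 CPM (-0.88 ± 0.22, SE; edgeR adjusted p = 0.0126), and that of lsm6.L from 118, 102 and 119.9 CPM to 71.7 and 62.3 CPM (-0.76 ± 0.20, SE; edgeR adjusted p = 0.0162). Without MOV10 replicate 3 the edgeR adjusted p was 0.0718 for lsm7.S (0.00339 to 0.0919 over the 14 alternatives) and 0.0964 for lsm6.L (0.00576 to 0.167). Ring subunit gene lsm5.L was at 84.9, 93.4 and 85.2 CPM against 81.8 and 84.2 CPM, just below all controls, with a 95% interval of -0.51 to 0.35 on the log2 scale. The subunit that sets the decay ring apart from the nuclear one went the other way without passing the test. The level of lsm1.L was 5.56, 4.81 and 4.30 CPM against 8.28 and 8.50 CPM (edgeR adjusted p = 0.114), and that of lsm1.S was 9.51, 12.6 and 8.84 CPM against 18.3 and 16.7 CPM (edgeR adjusted p = 0.0676). Neither copy's groups overlapped, and the fitted log2 fold changes were 0.78 ± 0.36 and 0.76 ± 0.30 (SE). With a minimum count of 30 lsm1.S passed (edgeR adjusted p = 0.0442).

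Other LSM proteins share the fold but not the ring. LSM10 and LSM11 belong to the U7 particle that processes histone mRNA ends, and LSM14 proteins bind stored mRNA in oocytes and P-bodies. Of 7 tested members 3 fell and 1 rose (17.7% of all genes fell and 24.4% rose). The level of lsm10.L was 29.2, 38.7 and 37.1 CPM in the controls and 11.3 and 8.69 CPM in the MOV10 libraries (-1.81 ± 0.28, SE; edgeR adjusted p = 0.00158). Its U7 partner gene lsm11.S stood at 23.2, 37.7 and 35.0 CPM against 22.6 and 25.4 CPM, with overlap (edgeR adjusted p = 0.273). Both lsm14a copies fell without overlap, lsm14a.L from 34.2, 28.1 and 33.0 CPM to 9.31 and 9.54 CPM (-1.75 ± 0.26, SE; edgeR adjusted p = 0.00130) and lsm14a.S from 99.4, 92.7 and 96.5 CPM to 45.4 and 28.5 CPM (-1.38 ± 0.25, SE; edgeR adjusted p = 0.00329).

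For the paralog lsm14b the difference from lsm14a was not tested. Its S copy rose from 4.49, 4.40 and 8.34 CPM to 16.7 and 10.02 CPM (1.22 ± 0.42, SE; edgeR adjusted p = 0.0449), without overlap. That call was lost without control replicate 1 (edgeR adjusted p = 0.114), control replicate 2 (0.117) or MOV10 replicate 2 (0.259), and also with total gene counts (0.0772) or the upper quartile (0.0651) as the scale. The L copy was at 30.6, 33.8 and 27.5 CPM against 21.0 and 26.5 CPM, below all controls, and did not pass (-0.37 ± 0.25, SE; edgeR adjusted p = 0.265). Nor did lsm12.L, the member of this group with the highest mean CPM among those that did not pass, at 42.1, 47.6 and 34.5 CPM against 24.3 and 35.5 CPM.

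The exonucleases that digest from the 5′ end divided by gene. XRN2, the nuclear enzyme known for ending transcription by RNA polymerase II, fell in both copies, while neither copy of XRN1, the cytoplasmic enzyme of mRNA decay, passed the test. The level of xrn2.S (5S, 28580619 to 28626313) was 227, 230.2 and 218 CPM in the controls and 64.4 and 65.2 CPM in the MOV10 libraries. The spread within each group was small next to the gap between them, and the fall was 3.47-fold (-1.80 ± 0.19, SE; edgeR adjusted p = 0.000250). The level of xrn2.L (5L, 34700575 to 34761754) was 45.7, 40.1 and 36.1 CPM against 16.4 and 22.3 CPM (-1.07 ± 0.26, SE; edgeR adjusted p = 0.0113), and without MOV10 replicate 2 the edgeR adjusted p was 0.0742 (0.00218 to 0.0742 over the 14 alternatives).

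For xrn1.L the levels were 10.4, 10.8 and 15.8 CPM against 16.9 and 14.6 CPM, with overlap (0.35 ± 0.31, SE; edgeR adjusted p = 0.389). For xrn1.S they were 1.94, 2.85 and 0.743 CPM against 7.62 and 3.97 CPM, with no overlap (1.64 ± 0.62, SE; edgeR adjusted p = 0.0625). This value lay close to the threshold. Among settings that kept both MOV10 libraries it passed without control replicate 2 (edgeR adjusted p = 0.0484) and with a minimum count of 30 (0.0460). It also passed with the replicate number as a block (edgeR adjusted p = 0.0497). Without MOV10 replicate 3, which left 1 MOV10 library, the log2 fold change was 2.03. The difference between XRN1 and XRN2 was not tested.

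The exosome is a ring of subunits with a cap, and its nuclear form carries the nuclease EXOSC10. Of 7 tested subunit genes 3 fell, 3 did not pass and 1 rose, with a median log2 fold change of -0.53. Over all genes 17.7% fell and 24.4% rose. Models matched to EXOSC2, EXOSC3 and EXOSC8 carry other names in the annotation and are not in this count. The EXOSC3 model fell (log2 fold change -1.06), while both tested EXOSC2 models (1.05 and 1.51) and the EXOSC8 model Xelaev18013699m.g (2.06) rose. The other EXOSC8 models did not pass, and all are given further below. A ring subunit gene, exosc5.L, fell from 14.9, 11.7 and 10.6 CPM to 4.61 and 4.16 CPM (-1.49 ± 0.35, SE; edgeR adjusted p = 0.00950). The cap subunit gene exosc1.L fell from 49.6, 56.7 and 60.7 CPM to 28.1 and 32.2 CPM (-0.88 ± 0.23, SE; edgeR adjusted p = 0.0139), and missed the threshold without MOV10 replicate 2 (0.0805; 0.00467 to 0.0947 over the 14 alternatives). Neither overlapped between groups. Ring subunit gene exosc4.S fell from 67.2, 79.5 and 62.6 CPM to 43.9 and 45.0 CPM (-0.65 ± 0.22, SE; edgeR adjusted p = 0.0397), also without overlap, but its call was lost without any 1 of the libraries, at 0.0672, 0.110 and 0.0519 without control replicates 1, 2 and 3 and 0.139 and 0.120 without MOV10 replicates 2 and 3.

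Among the tested members a single ring subunit gene rose. The level of exosc7.L was 5.36, 7.01 and 10.2 CPM in the controls and 33.6 and 20.5 CPM in the MOV10 libraries, a 3.59-fold rise without overlap (1.85 ± 0.36, SE; edgeR adjusted p = 0.00448). Its S copy stood at 33.8, 44.5 and 46.0 CPM against 53.3 and 26.9 CPM, the MOV10 libraries lying on either side of the controls. The nuclease gene exosc10.L was at 418, 469 and 462 CPM against 353 and 377 CPM. Both MOV10 libraries lay below all controls, but the test was not passed (-0.30 ± 0.17, SE; edgeR adjusted p = 0.182), and the 95% interval was -0.69 to 0.08. With total gene counts as the scale it passed (0.0307). The S model of exosc10 had 1 count in all 5 libraries together and was not tested. Ring subunit gene exosc9.L had -0.53 ± 0.21 (SE; edgeR adjusted p = 0.0734), and passed with total gene counts (0.0173) or the upper quartile (0.0365) as the scale.

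Of the genes for the SKI complex and MTR4, which feed RNA to the exosome, 3 of 4 rose and none fell, with a median log2 fold change of 1.65 (24.4% of all genes rose). The cytoplasmic SKI complex is built from the helicase SKIV2L, the scaffold TTC37 and WDR61 (Ski8), and MTR4, encoded by skiv2l2, is the nuclear counterpart of the helicase. The level of skiv2l.L (8L, 52163542 to 52190222) was 6.03, 4.56 and 3.80 CPM in the controls and 19.0 and 27.3 CPM in the MOV10 libraries, a 4.81-fold rise (2.27 ± 0.34, SE; edgeR adjusted p = 0.00124). The level of ttc37.L (1L, 179514984 to 179577021) was 5.56, 4.32 and 6.69 CPM against 25.2 and 28.5 CPM, a 4.86-fold rise (2.28 ± 0.30, SE; edgeR adjusted p = 0.000716). Both genes thus rose by much the same factor, and in neither did any MOV10 library come near a control. Each has only an L copy in the annotation and overlaps a gene on the opposite strand, nelfe.L for skiv2l.L and fam81b.L for ttc37.L. Stranded counts were used, and the opposite strand held 2.57% of the reads of both strands for skiv2l.L and 0.0% for ttc37.L. In all 17 members overlap another model, cnot11.L, parn.L and exosc5.L among them. Whether reads strayed between strands was not tested.

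MTR4 gene skiv2l2.L (1L, 195556914 to 195642356) rose from 42.7, 49.2 and 36.8 CPM to 95.5 and 81.3 CPM, 2.06-fold and without overlap (1.04 ± 0.22, SE; edgeR adjusted p = 0.00594). The S copy (1S, 160451545 to 160535594) was at 100.2, 122 and 96.3 CPM against 90.4 and 74.9 CPM, below all controls, and did not pass (-0.36 ± 0.21, SE; edgeR adjusted p = 0.202). The spans of both skiv2l2 models, introns included, overlap other models on the same strand. Whether reads were lost there was not tested.

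The remaining SKI subunit, WDR61, lay outside the member rule and fell. The level of wdr61.L was 126, 126 and 133 CPM in the controls and 48.6 and 36.2 CPM in the MOV10 libraries (-1.60 ± 0.22, SE; edgeR adjusted p = 0.000850). Genes of SKIV2L and TTC37 thus rose in the libraries in which a gene of their partner fell, without overlap between groups for any of the 3. The S copy of wdr61 had a log2 fold change of -0.997 ± 0.37 (SE; edgeR adjusted p = 0.0576).

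The L and S copies gave 32 pairs with both copies tested. Both copies passed the test in the same direction in 5 pairs (15.6%, against 21.1% of 5370 pairs over the genome), namely parn, lsm3, cnot11, lsm14a and xrn2, all lower. In no pair did the copies pass in opposite directions (2.09% over the genome). A single copy passed in 12 pairs (37.5%, against 36.3%), 6 times the L copy and 6 times the S copy. Reads that match both copies equally are not counted, so how reads divide between near-identical copies is uncertain.

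Whether the fold changes of the copies differed was tested directly, with limma on the difference in log2 CPM between L and S in each library, adjusted over all 5370 pairs. They differed in 8 of 32 pairs (25.0%, against 26.2% over the genome), so unequal copies were no more frequent here than elsewhere. The L copy had the higher fold change in 7 of the 8, a split that was not counted over the genome. In xrn2, 1 of these 7, both copies fell and the L copy fell less. For skiv2l2 the L minus S difference was 1.40 ± 0.18 on the log2 scale (SE; limma adjusted p = 0.000902) and for exosc7 it was 1.94 ± 0.30 (SE; limma adjusted p = 0.00203). These 2 pairs held without any 1 library. For edc4 it was 1.42 ± 0.27 (SE; limma adjusted p = 0.00470), for pan2 1.35 ± 0.28 (0.00708), for cnot3 1.15 ± 0.28 (0.0142), for tob1 2.19 ± 0.57 (0.0205), for xrn2 0.72 ± 0.21 (0.0359) and for lsm14b, where S was the higher, -1.58 ± 0.48 (0.0365). Pairs that differed numbered 5 without control replicate 2, 4 without MOV10 replicate 2 and 2 without MOV10 replicate 3. These pairs were named after their values were seen.

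Adding the copies together shows what was left at the level of the gene. The summed level of skiv2l2 was 143, 171 and 133 CPM in the controls and 186 and 156 CPM in the MOV10 libraries, so the groups overlapped although the L copy rose 2.06-fold. Sums overlapped likewise for exosc7, pan2 and lsm14b, the last at 35.1, 38.2 and 35.9 CPM against 37.6 and 36.5 CPM. For edc4 the sum was 73.4, 88.9 and 67.2 CPM against 106 and 106 CPM, both MOV10 libraries above all controls. For tob1 it was 9.57, 9.13 and 8.59 CPM against 14.8 and 23.6 CPM. For cnot3 it was 113, 93.2 and 102 CPM against 60.3 and 74.4 CPM, both MOV10 libraries below all controls. For xrn2 it was 272, 270.3 and 254 CPM against 80.7 and 87.5 CPM, and for parn 14.8, 13.5 and 13.0 CPM against 2.26 and 2.27 CPM, both far apart. These sums were described and not tested.

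**Figure D3:**
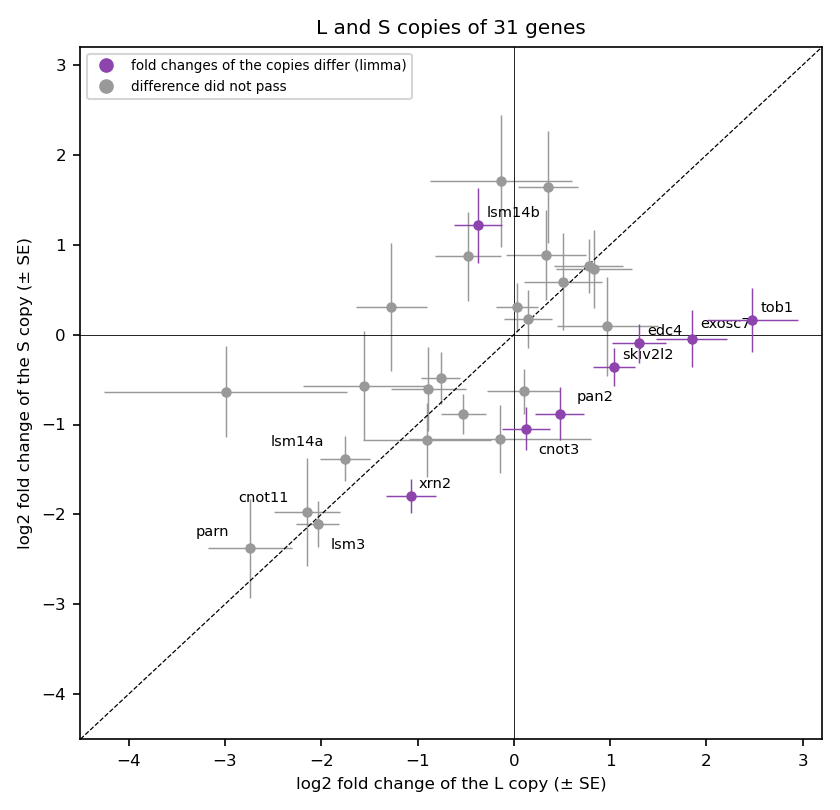
Fitted log2 fold change of the L copy (x axis) and of the S copy (y axis) for 31 of the 32 member pairs with both copies tested, with bars of 1 standard error and a dashed line where the copies are equal. Purple points are the 8 pairs whose fold changes differed (limma adjusted p under 0.05), 7 of them to the right of the line; parn, lsm3, cnot11 and lsm14a lie near the line at the lower left.

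Some subunits of the same complexes carry other names in the annotation and were found through the human symbol it gives. They were looked up after the members' values were seen. CNOT9, the CCR4-NOT subunit that binds silencing proteins, is named rqcd1: rqcd1.L fell (-1.41 ± 0.31, SE; edgeR adjusted p = 0.00744), and rqcd1.S had -0.93 ± 0.30 (SE; edgeR adjusted p = 0.0351), a call that was lost without any 1 of the libraries (0.0171 to 0.164 over the 14 alternatives). LSM8, of the nuclear ring, is named naa38-like: its L copy fell from 196, 178 and 228 CPM to 93.0 and 89.3 CPM (-1.14 ± 0.20, SE; edgeR adjusted p = 0.00267). Its S copy had -0.78 ± 0.22 (SE; edgeR adjusted p = 0.0201), and that call was lost without control replicate 3 (0.0623) or MOV10 replicate 3 (0.132). A model matched to the cap subunit EXOSC3, LOC100491278-like.L, fell (-1.06 ± 0.21, SE; edgeR adjusted p = 0.00448). Of 3 models matched to the ring subunit EXOSC8, Xelaev18013699m.g rose by 2.06 ± 0.36 on the log2 scale (SE; edgeR adjusted p = 0.00255; 1.36 with unstranded counts). Of its reads on both strands 24.7% lay on the opposite strand. The other EXOSC8 models did not pass, Xelaev18016150m.g with -0.45 ± 0.21 and Xelaev18016151m.g with -0.27 ± 0.57 (SE; edgeR adjusted p = 0.121 and 0.738).

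Other genes of RNA decay were counted from lists of pathway partners, chosen with earlier results of these data known. Over all genes 24.4% rose and 17.7% fell. The exosome list also names gtpbp2 and the decapping list hbs1l and pelo, all of them genes of ribosome rescue. Partners of the exosome had 2 of 12 tested models higher and 6 lower, with a median log2 fold change of -1.01. Among them the nuclease gene dis3.L fell by 1.13 ± 0.20 on the log2 scale (SE; edgeR adjusted p = 0.00272) and mphosph6.S, of a nuclear exosome cofactor, by 1.48 ± 0.28 (SE; edgeR adjusted p = 0.00373), while gtpbp2.S, a ribosome rescue factor, rose by 2.82 ± 0.46 (SE; edgeR adjusted p = 0.00188). In the list of poly(A) addition and binding genes 1 of 29 rose and 8 fell (median -0.47). Both copies of poly(A) polymerase gene papola fell, papola.S by 1.38 ± 0.20 and papola.L by 1.49 ± 0.25 on the log2 scale (SE; edgeR adjusted p = 0.000995 and 0.00234). The cleavage factor gene cpsf4.S fell as well (-1.30 ± 0.22, SE; edgeR adjusted p = 0.00214), and the poly(A)-binding protein gene pabpc4.L rose (1.30 ± 0.25, SE; edgeR adjusted p = 0.00382).

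Of 12 other deadenylase and BTG models 2 rose and 3 fell (median 0.27). BTG proteins are relatives of TOB that stimulate deadenylation: btg1.S and btg2.S were higher by 1.58 ± 0.21 and 1.46 ± 0.28 on the log2 scale (SE; edgeR adjusted p = 0.000786 and 0.00391), and btg4.S, the oocyte member in mouse, fell by 2.85 ± 0.69 (SE; edgeR adjusted p = 0.0110; log2 fold change -3.84 without MOV10 replicate 2). Mitochondrial deadenylase gene pde12.S had -0.78 ± 0.24 (SE; edgeR adjusted p = 0.0276), and its call was lost without control replicate 2 (0.0700), control replicate 3 (0.0858) or MOV10 replicate 3 (0.150). Decapping partners had 1 of 9 higher and 2 lower (median 0.02), and all 3 calls were lost without some library: hbs1l.L without MOV10 replicate 2 (edgeR adjusted p = 0.0521), patl2.L without control replicate 1 (0.0596), control replicate 3 (0.112), MOV10 replicate 2 (0.0750) or MOV10 replicate 3 (0.150), and eif4enif1.S without control replicate 1 (0.121), control replicate 3 (0.132), MOV10 replicate 2 (0.139) or MOV10 replicate 3 (0.114).

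Nonsense-mediated decay had 3 of 22 higher and 4 lower (median -0.17). The adaptor gene smg5, whose protein leads the target RNA to decay, rose in both copies (smg5.S 2.496 ± 0.34 and smg5.L 2.19 ± 0.44 on the log2 scale, SE; edgeR adjusted p = 0.000849 and 0.00503), smg5.L with 2.81 without MOV10 replicate 2 and 1.04 without MOV10 replicate 3. Exon junction complex gene casc3.L fell (-1.54 ± 0.27, SE; edgeR adjusted p = 0.00248), and magoh.S, of the same complex, missed the threshold without MOV10 replicate 3 (0.0523, against 0.00822 with all libraries). Terminal uridylation genes had 1 of 11 higher and 2 lower (median -0.20), with lin28a.L higher (2.02 ± 0.30, SE; edgeR adjusted p = 0.00132). The call of dis3l2.L, lower, ended without control replicate 1 (0.0718) or MOV10 replicate 3 (0.116), and that of zcchc11.L, lower, without control replicate 1 (0.0682), control replicate 3 (0.0625) or MOV10 replicate 2 (0.147). Among RNA-binding factors that steer decay 4 of 39 rose and 12 fell (median -0.60). The Smaug family gene samd4b.L rose (3.11 ± 0.35, SE; edgeR adjusted p = 0.000332), and caprin1.L (-1.51 ± 0.17), khsrp.S (-1.44 ± 0.19) and the germ plasm translational repressor gene nanos1.L (-4.76 ± 0.68, SE) fell, at edgeR adjusted p of 0.000390, 0.000699 and 0.00104. The value of nanos1.L was -4.07 without MOV10 replicate 2 and -6.14 without MOV10 replicate 3.

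**Figure D4:**
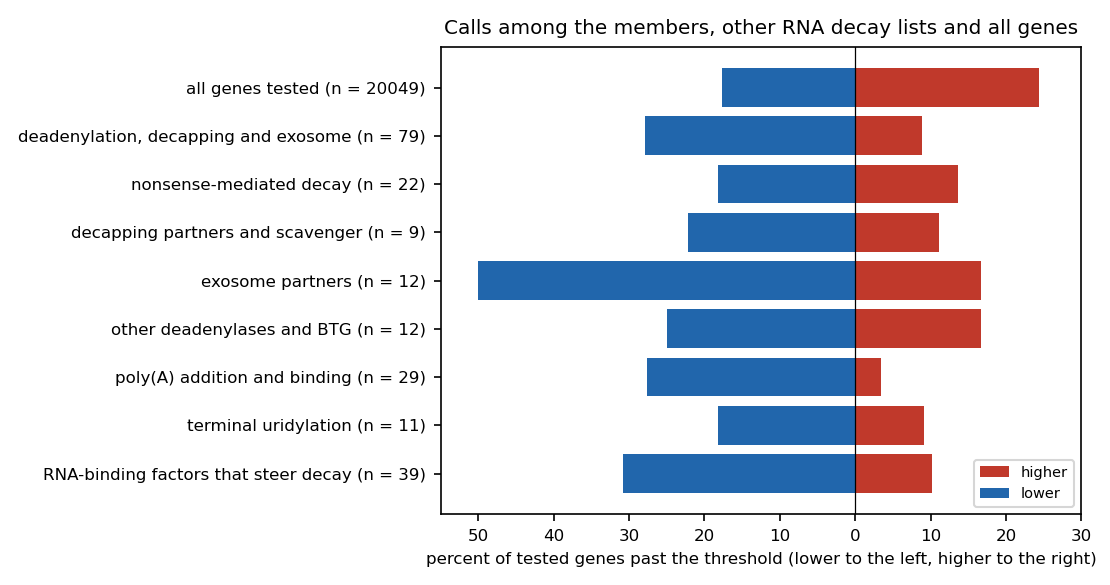
Percent of tested genes past the threshold, lower to the left and higher to the right, for all genes, the members and 7 other lists of RNA decay genes. Among all genes the higher share (24.4%) exceeds the lower one (17.7%), an excess that depended on the scale. Among the members the lower share (27.8%) exceeds the higher one (8.86%), as it does in each of the other lists. Those lists were chosen with earlier results of these data known. Some lists rest on few calls, with 1 gene higher and 2 lower among decapping partners and in terminal uridylation. Other deadenylases and BTG had 2 higher and 3 lower, and nonsense-mediated decay 3 higher and 4 lower. The list of exosome partners names gtpbp2 and that of decapping partners hbs1l and pelo, all ribosome rescue genes.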

How the data were processed

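Per the labels' protocols, total RNA of whole embryos was extracted with TRIZOL and sequenced after a stranded TruSeq mRNA kit. STAR 2.5.2a and edgeR 3.15.2 are listed in the submitters' processing notes. The authors deposited whole-number read counts per gene and library in STAR's layout, on Xenla9.1 with Xenbase models 1.8.3.2 per the annotation table's legend. The reverse-strand count column, the sense strand for this kit, was used. The summary lines, which name no gene, were left out. Libraries had 120128621 to 156177877 reads, of which genes held 9.01 to 10.4% in the controls and 7.51 and 8.83% in the MOV10 libraries. The TMM factors were 1.01 to 1.11 in the controls and 0.910 and 0.936 in the MOV10 libraries. The authors' deposited comparison table gives log2 fold changes, p-values and false discovery rates, and a signed fold change treated as a score and not used.

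The counts were fitted with edgeR 4.0.16 in R 4.3.3 (filterByExpr minimum count 10, TMM, glmQLFit and glmQLFTest, two-sided, group as the only term), with Benjamini-Hochberg adjustment over 20049 genes. The SE is the size of the log2 fold change over the square root of F. Copies were compared with limma 3.58.1 (prior count 2), a test added after seeing the data, and DESeq2 1.42.0 was an alternative. Scripts were tested on simulated data. Reads are not independent molecules, so counting intervals and the floor of 3 counts cover counting error only, and p-values measure the spread between these libraries.

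Members and lists were chosen with earlier results of these data known. Values were printed for both copies of xrn2, skiv2l, skiv2l2 and ttc37, up to 6 called members per role by adjusted p, the member with the highest mean CPM among those not called, and up to 4 called genes per other list; further members were named, and the gastrula markers chosen, after the data were seen. Alternatives were other scalings, filters, strand and tools, a replicate term, and leaving out each library. The labels state no pairing by replicate number, so the numbers were not taken to pair the libraries. Deviations from the group means correlated at 0.0712 between the libraries numbered 2 and 0.0200 between those numbered 3. With only 2 MOV10 libraries their deviations are equal and opposite, so these correlations cannot show whether the numbers pair. Values of some members are not reported here, though the counts include them. No sequence was used here.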

Additional observations from a re-analysis of the deposited data

How the results depend on the processing

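No member changed direction past the threshold in any of the 14 alternatives. Members higher and lower numbered 7 and 21 of 82 with DESeq2, and the same with no filter on low counts. Over 32011 genes these settings gave 5312 and 3611, and 5139 and 3581. Of 79 members 7 were higher and 20 lower with RLE scaling, and 7 and 21 with unstranded counts. The counts for all genes were 5031 and 3442 of 20049, and 5209 and 3769 of 21231. With a minimum count of 30, 9 and 20 of 72 members were higher and lower, against 4244 and 3257 of 15183 genes. Tested against a 1.5-fold change instead of 0, 6 of 79 members were higher and 14 lower, against 3982 and 2424 of 20049 genes. With total gene counts as the scale the median log2 fold change of all genes moved from 0.08 to -0.12 and that of the members from -0.30 to -0.49, and 6 members were higher and 27 lower. Upper-quartile scaling gave 6 and 24. With the replicate number as a block, 9 members were higher and 17 lower, and 4118 and 3098 of all genes. That block ended the calls of cnot6l.S, cnot8.L, zfp36l2.1.L, edc3.S, exosc4.S and lsm14b.S. It brought cnot4.S, xrn1.S and zfp36l1.L past the threshold (edgeR adjusted p = 0.0207, 0.0497 and 0.0369). Leaving out 1 library gave 6 to 8 members higher and 13 to 17 lower, 3718 to 4405 of all genes higher and 2654 to 3012 lower, and 2 to 6 pairs whose copies differed; such counts come with fewer samples. A prior count of 0.5 left 8 such pairs. Over the alternatives, of which 1 uses DESeq2 and the others edgeR, the adjusted p ran from 0.00963 to 0.101 for cnot11.S, 0.0124 to 0.107 for cnot8.L, 0.0282 to 0.155 for cnot6l.S, 0.0160 to 0.164 for pan2.S, 0.0241 to 0.134 for zfp36l2.1.L, 0.0151 to 0.181 for edc3.S, 0.0276 to 0.259 for lsm14b.S and 0.0123 to 0.314 for exosc4.S. Among members that did not pass with all libraries it ran from 0.0460 to 0.324 for xrn1.S, 0.0207 to 0.447 for cnot4.S, 0.0175 to 0.342 for dcp1a.S, 0.0369 to 0.396 for zfp36l1.L, 0.0442 to 0.243 for lsm1.S, 0.0173 to 0.510 for exosc9.L and 0.0307 to 0.878 for exosc10.L. Total gene counts as the scale also brought cnot2.S (0.0313), lsm2.S (0.0406) and lsm7.L (0.0315) past the threshold, and the upper quartile cnot2.S (0.0352). Group sizes of 3 and 2 left a median SE of 0.336 on the log2 scale, and 17 members had an SE above 0.5.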

Other observations

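The authors' deposited table holds 78 of the members. By its false discovery rate, at a threshold of 0.05, 6 were higher and 14 lower. The share over all genes of that table was not counted. The name of the table carries a 1.5-fold change, and the counts equal those of the test against 1.5-fold run here, not those of the test against no change. No log2 fold change in it was more than 0.00131 away from the value of the fit used here.

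The MOV10 libraries differed from each other by more than 2-fold in 10 tested members, 3 of which passed the test (zfp36l2.1.L, cnot11.S and edc3.S). The ratio of the highest to the lowest control ran from 1.05 to 4.60, with a median of 1.40. Reads on the opposite strand made up at most 10.9% of a tested member's reads, with a median of 0.374%.

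Of 43 tested L copies 6 rose and 11 fell, where 24.4% of all tested L models rose and 18.0% fell. Of 36 tested S copies 1 rose and 11 fell, where 22.3% of all tested S models rose and 18.5% fell. Among other models matched only by human symbol, 3 were matched to the cap subunit EXOSC2, and 1 of them had too few reads to test. Xelaev18041663m.g had 1.05 ± 0.24 on the log2 scale (SE; edgeR adjusted p = 0.00837), which missed the threshold without MOV10 replicate 3 (0.0604). Xelaev18041662m.g had 1.51 ± 0.46 (SE; edgeR adjusted p = 0.0293), and its call was lost in 7 of 14 alternatives, including without control replicate 1 (0.0668), control replicate 3 (0.0720), MOV10 replicate 2 (0.0551) or MOV10 replicate 3 (0.127). A model matched to LSM4, Xelaev18006368m.g, had -2.03 ± 0.53 (SE; edgeR adjusted p = 0.0156), and its call was lost without control replicate 1 (0.0525) or MOV10 replicate 2 (0.0669).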
